A study of Mus musculus with 7 samples.

Results

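The open chromatin of sorted progenitor cells of the second heart field (SHF) was set against that of reporter-negative sorted cells, in mouse embryos at embryonic day 9.5. The sorted-positive group held 4 libraries, all of which were compared with the 3 sort-negative libraries of the series, and membership in either group followed the sample labels alone. GFP+ replicates 3 and 4 came from Hoxb1GFP embryos, in which a GFP reporter at the Hoxb1 locus marks the posterior SHF. Tomato+ replicates 6 and 8 came from Mef2c-Cre;RosatdT embryos, in which an enhancer of Mef2c active in the anterior heart field drives a Cre transgene, and Cre switches on tdTomato at the Rosa locus. GFP- replicates 1 and 2 and Tomato- replicate 7 were the negative sorts for these reporters. Whether positive and negative libraries came from the same sort is not stated in the labels. The mouse line of the GFP- libraries was read from the reporter their label names. The dissected SHF region of several embryos was pooled before sorting, so each library is a mixture of embryos, and the cell types in the negative sorts were not measured. A region with less signal in a bulk library may be open in fewer cells or less open in each cell, and the 2 cannot be told apart.

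The SHF is a population of mesodermal progenitors behind and around the early heart tube that adds myocardium to the outflow tract, right ventricle and atria. Its regulatory genes include Isl1, Tbx1, Tbx5, Gata4, Mef2c and the anterior Hox genes. At this stage the pharyngeal endoderm, neural tube, neural crest, endothelium and somites lie close to it, and which of them the dissected pieces held is not given in the sources used here. In ATAC-seq, a transposase loaded with sequencing adapters inserts them where DNA is not packed by nucleosomes, so open promoters and enhancers gather reads that a peak caller then marks.

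Peaks that MACS called at a -log10 q of at least 2 were merged across the 7 libraries wherever they shared 1 bp, which gave 210347 regions with a median length of 159 bp. A peak in 1 library alone made 65.8% of them, 71981 had a peak in at least 2 libraries, and 23628 had one in all 7. Within each library, regions were ranked by the -log10 p of their strongest peak and given a rank score that is 100 for the strongest region and falls to 0 at the rank of 85184, the number of regions with any deposited peak in the library with the fewest. A region without a peak scores 0. Ranks were used in place of p-values, which grow with sequencing depth.

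Sequencing depth and the overall peak sets were not shown to differ between the groups. The number of tags behind each list, computed from the background rate of MACS, lay between 52340120 and 93074895, with a mean of 63352716 in the sorted-positive and 79335199 in the sort-negative libraries (exact permutation test within mouse lines, two-sided p = 0.222, where 18 arrangements allow no p under 0.0556). Peak numbers, peak length, promoter share and share of repeated sequence gave exact p-values between 0.278 and 0.889 in the same test. The libraries did not all group by sort. Across 50862 regions with a peak in at least 3 libraries, the rank scores of Tomato+ replicate 8 were most like those of Tomato- replicate 7 (Spearman's rho 0.807) and less like those of Tomato+ replicate 6 (0.711). The GFP+ pair had a rho of 0.779 and the GFP- pair one of 0.781, and Tomato+ replicate 6 had the lowest values with every other library, from 0.677 to 0.729. These values describe regions that share a genome and a peak caller, and were not tested. The header of the list of Tomato+ replicate 6 has YFP in its run name, and its label was followed. The counts at the neural, SHF and myocardial lists, the limma calls, the presence patterns and the SOX and TEAD motif shares are given below with and without Tomato+ replicates 6 and 8. The counts at the other lists and at promoters are given with all 7 libraries.

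**Figure D1:**
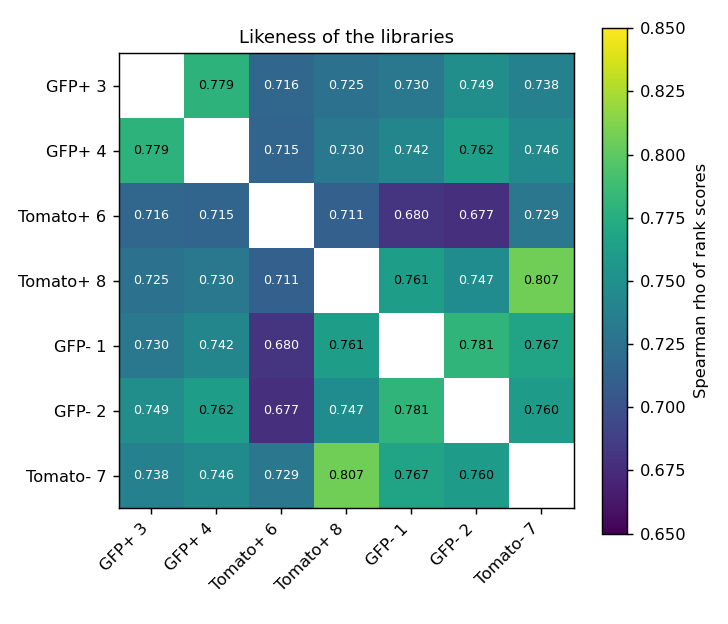
Spearman's rho between the rank scores of each pair of libraries over 50862 regions with a peak in at least 3 libraries, as a coloured matrix (scale from 0.65 to 0.85). Tomato+ 8 and Tomato- 7 form the pair with the highest value, 0.807, and the row of Tomato+ 6 holds the lowest.

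The labels were checked against the reporter loci. The local background that MACS computed around the enhancer inside Mef2c, divided by the background of the whole genome, was 6.66 and 3.09 in Tomato+ replicates 6 and 8 and 1.56 in Tomato- replicate 7. It lay between 1.10 and 1.21 in the 4 libraries of the Hoxb1GFP line. It was thus highest in the line that carries extra copies of this enhancer in its Cre transgene, and above 3 only in its positive sorts. The cause of the higher values was not tested. The promoter of Hoxb1, which drives GFP in the other line, scored 64.0 and 26.1 in GFP+ cells, 43.8 and 57.7 in Tomato+ cells, and 55.2, 66.1 and 62.5 in the sort-negative libraries, so it did not separate the sorts.

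Sequence is shown for distal regions of both directions, chosen because they hold the motifs described further on. Each is 200 bases of the forward strand of GRCm38 (RefSeq), taken inside or around the peak and free of exons. Capitals mark matches, on either strand, to the short cores of SOX factors (ACAAAG), of a SOX variant (ACAATG), of TEAD factors (GGAATG), of GATA factors (AGATAA), of MEIS factors (TGACAG) and of HOX-PBX dimers (TGATNNAT). The first had a peak in all 4 sorted-positive and in no sort-negative library. It lies in an intron, 36748 bp downstream of the Septin11 start (chr5:93130064-93130263). It holds 3 TEAD matches, the last of which overlaps a MEIS match, and 1 SOX match.
Septin11: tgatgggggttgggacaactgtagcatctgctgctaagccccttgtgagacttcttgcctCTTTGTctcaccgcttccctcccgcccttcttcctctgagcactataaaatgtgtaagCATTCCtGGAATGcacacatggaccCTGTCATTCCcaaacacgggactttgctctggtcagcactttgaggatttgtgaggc

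A region 31526 bp from the start of Tbx1 (chr16:18555343-18555542), a T-box factor of the pharynx and outflow tract progenitors, carries 1 TEAD match. It had a peak in 3 of 4 sorted-positive libraries. It lies in an intron, and whether that intron belongs to Tbx1 was not determined. Of the other regions of the sorted-positive presence pattern that were searched, those at Triqk, Fezf2, Flna and Gm36406 hold no match to these motifs, and that at 3930402G23Rik holds a HOX-PBX match only, so the printed TEAD matches do not represent their direction.
Tbx1: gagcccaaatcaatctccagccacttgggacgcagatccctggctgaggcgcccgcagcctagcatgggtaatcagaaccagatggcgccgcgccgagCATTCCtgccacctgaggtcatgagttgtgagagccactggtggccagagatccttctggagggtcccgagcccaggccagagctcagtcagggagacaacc

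In the opposite direction, 4 regions had a peak in all 3 sort-negative and in no sorted-positive library. They lie in an intron near the start of Crb1 (chr1:139376003-139376202), in an intron 51862 bp from the start of Nkx6-2 (chr7:139530835-139531034), between genes 32740 bp upstream of Olig2 (chr16:91192710-91192909) and between genes 20228 bp downstream of Neurog2 (chr3:127653264-127653463). They are printed because each holds a SOX match or a match to the SOX variant, and those at Crb1 and Nkx6-2 also hold a MEIS match. Other regions of this pattern hold no SOX match, among them the strongest, at D030045P18Rik, and those at G530011O06Rik, Cmtm4 and Rfx4, the last of which holds a TEAD and a HOX-PBX match. The share of all such regions with a match is given further on.
Crb1: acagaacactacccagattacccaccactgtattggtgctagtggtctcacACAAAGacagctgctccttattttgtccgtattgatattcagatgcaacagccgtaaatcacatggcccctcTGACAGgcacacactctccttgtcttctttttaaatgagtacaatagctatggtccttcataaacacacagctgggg
Nkx6-2: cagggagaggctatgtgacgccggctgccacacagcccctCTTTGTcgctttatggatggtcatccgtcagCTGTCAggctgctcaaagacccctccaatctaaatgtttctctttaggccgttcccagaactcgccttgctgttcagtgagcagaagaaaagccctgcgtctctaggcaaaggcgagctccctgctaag
Olig2: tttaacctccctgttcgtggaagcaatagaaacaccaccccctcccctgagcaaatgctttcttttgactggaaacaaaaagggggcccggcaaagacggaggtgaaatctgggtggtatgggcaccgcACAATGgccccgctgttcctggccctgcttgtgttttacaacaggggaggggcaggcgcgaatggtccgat
Neurog2: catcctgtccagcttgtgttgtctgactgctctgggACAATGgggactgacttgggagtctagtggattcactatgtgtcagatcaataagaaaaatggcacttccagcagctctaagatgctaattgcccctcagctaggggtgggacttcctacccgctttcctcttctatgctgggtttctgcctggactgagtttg

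Open chromatin near neural genes was more often weaker than stronger in the sorted-positive libraries. Regions were assigned to the nearest curated RefSeq transcription start site (TSS) within 150 kb, and those with a peak in at least 2 libraries were described by whether all rank scores of one group lay above all of the other. Over all 210347 regions, all 4 sorted-positive scores lay above all 3 sort-negative scores in 0.868% and below them in 1.23%. Over the 71981 regions with a peak in at least 2 libraries, all 4 sorted-positive scores lay above all 3 sort-negative scores in 2.26% and below them in 2.85%. Among the 162 regions at 24 neural tube and hindbrain factors, these shares were 0.617% (1 region) and 8.02% (13 regions). The median difference between the groups, sorted-positive minus sort-negative within lines, was -2.88 rank score units at these regions and -0.45 over all 62997 regions within 150 kb of a TSS. No region of any list reached an adjusted p of 0.1 in the limma test described further on. The list was chosen with earlier results of these data known, so its count is a description.

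The regions described here lay at factors of neural progenitors and of neuronal differentiation. At the promoter of Sox2, which maintains neural progenitors, the GFP+ libraries scored 54.9 and 21.8 and the Tomato+ libraries 20.8 and 73.6, against 84.4 and 77.6 in GFP- and 80.8 in Tomato- libraries, so that the groups did not overlap. The region 32740 bp upstream of Olig2, a factor of motor neuron and oligodendrocyte progenitors, had scores of 0.0 in all 4 sorted-positive libraries and of 71.3, 75.6 and 43.2 in GFP- replicates 1 and 2 and Tomato- replicate 7. The Olig2 difference was -61.37 ± 27.04 (SE) and had an adjusted p of 0.699 (limma). The region downstream of Neurog2, a bHLH factor that starts neuronal differentiation, had a score of 25.2 in Tomato+ replicate 8, 0.0 in the other sorted-positive libraries, and 81.6, 58.4 and 49.1 in the sort-negative libraries. Pou3f2 differed by little at its promoter, with 83.2 to 94.4 against 94.5 to 96.1.

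Others lay at Dbx1, Irx3, Msx3, Pax6, Sox1 and a site near the Sox2 promoter. At the Msx3 promoter, a homeobox gene of the dorsal neural tube, scores were 38.9, 5.8, 29.4 and 31.9 in the sorted-positive and 70.5, 62.4 and 78.0 in the sort-negative libraries. The only region of the list in the opposite direction lay in a coding exon at the start of Pax7, with 67.1, 21.2, 21.2 and 73 against 0.0, 2.8 and 18.2. Without Tomato+ replicate 8, 17 of 150 neural regions lay lower in every sorted-positive library and 1 lay higher, and the median difference was -4.46. Without Tomato+ replicate 6 these values were 17 of 147, 2 and -4.92. Leaving out each of the 7 libraries in turn gave between 15 and 22 regions below and between 1 and 6 above, with medians from -6.12 to -2.20, while the shares over all regions within 150 kb of a TSS also grew, to between 4.45% and 7.35% below and 4.18% and 5.81% above.

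**Figure D2:**
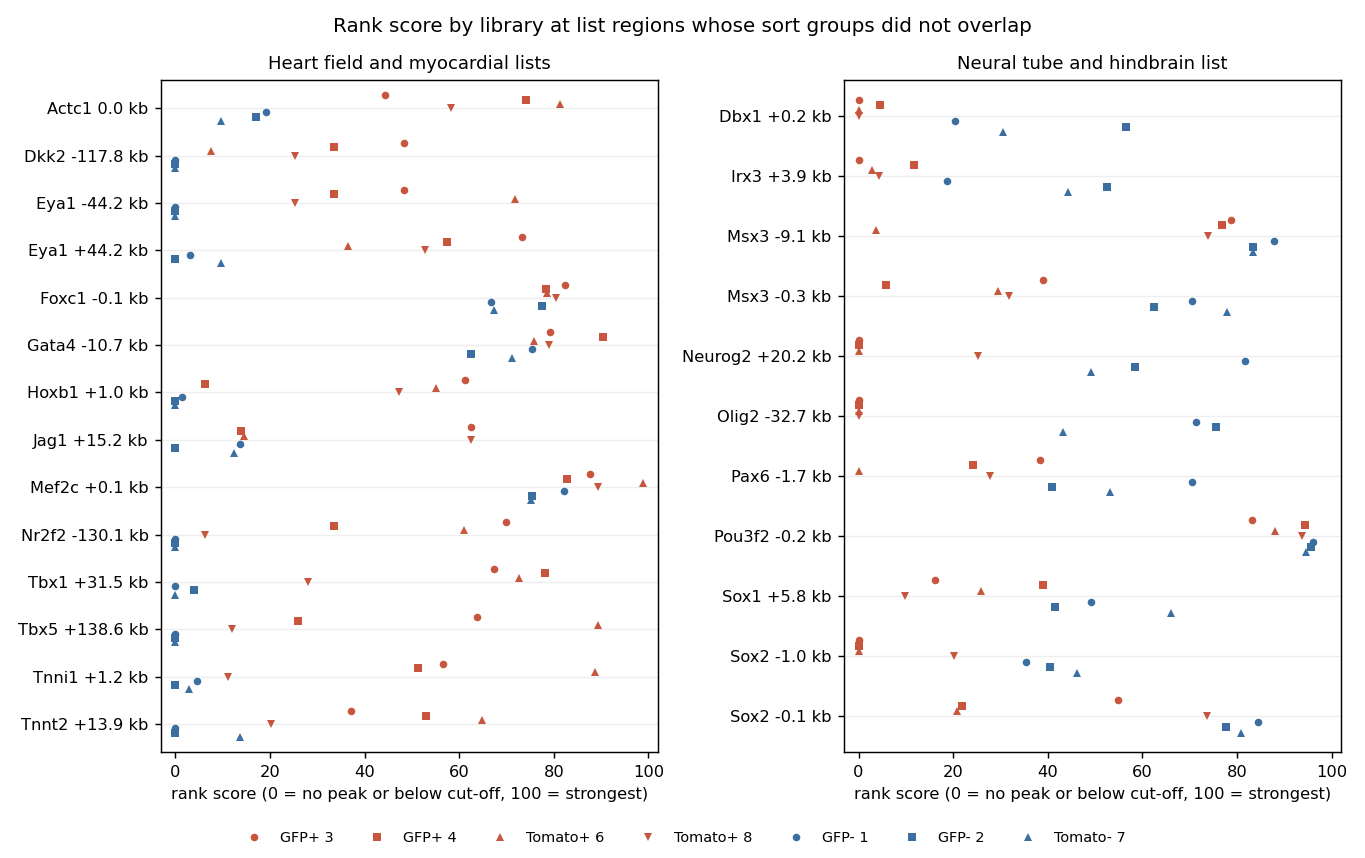
Rank score (x axis, 0 to 100) in each of the 7 libraries at regions of the heart field and myocardial lists that were higher in every sorted-positive library (left) and of the neural list that were higher in every sort-negative library (right), with the distance to the TSS in kb. Red marks are the 4 sorted-positive and blue marks the 3 sort-negative libraries, which were chosen not to overlap. Several differences are wide because the other group scores near 0, as at Olig2 (0.0 against 43.2 to 75.6), whereas Pou3f2 and Foxc1 are open in every library.

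Regions at heart genes leaned slightly the other way, as did those of a list of another tissue. Of 216 regions at 39 SHF and cardiac progenitor genes, 12 (5.56%) were higher in every sorted-positive library and 7 (3.24%) were lower, with a median difference of 1.79 and 56.5% of differences above 0. Both shares lay above the 2.26% and 2.85% of all regions with a peak in at least 2 libraries. The 27 regions at surface ectoderm genes had a larger median, 3.31, and 63% above 0. Without GFP- replicate 2 the ectoderm median was -1.79. Those higher included regions at Dkk2, Eya1, Foxc1, Gata4, Hoxb1, Jag1, Mef2c, Nr2f2, Tbx1 and Tbx5, with 2 at Eya1. The 7 lay at Eya1, Hoxa3, Isl1, Tbx1, Tbx2, Wnt11 and Wnt2, so that Eya1 and Tbx1 stood in both sets. The lower regions at Eya1 and Isl1 lie in sequence of about 259 and 85 copies and cannot be placed with certainty. Of the 2 higher regions at Eya1, 1 lies in sequence of about 8 copies. The other, of 91 bp, lies wholly in annotated repeats, although it counted as single-copy. Without Tomato+ replicate 6, 17 of 188 regions were higher (9.04%) and 8 lower (4.26%), beside 4.58% and 4.45% of all regions within 150 kb of a TSS. Without Tomato+ replicate 8 they were 23 (11.3%) and 10 (4.93%) of 203, beside 5.42% and 6%. With each library left out in turn the medians were 1.34 to 3.19, between 14 and 23 regions were higher and between 7 and 14 were lower.

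The region at the internal start of Mef2c, a MADS-box factor of the heart field, was open in all 7 libraries. It scored 87.6 and 82.7 in GFP+, 98.8 and 89.4 in Tomato+, 82.1 and 75.4 in GFP- and 75.1 in Tomato- libraries, a difference of 11.42 ± 3.06 (SE; unadjusted p = 1.87e-04, adjusted p = 0.203, limma). GFP+ replicate 4 and GFP- replicate 1 were nearly level, so the groups only just did not overlap. The Cre transgene carries an enhancer of Mef2c, and whether it also holds this sequence is not given in the sources used here. If it does, the transgene and the endogenous locus cannot be told apart in Tomato+ cells.

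The intronic region printed above, 31526 bp from the start of Tbx1, scored 67.3, 78.2, 72.7 and 28.1 in the sorted-positive libraries. It scored 0.0, 4.0 and 0.0 in the sort-negative libraries, a difference of 62.59 ± 26.30 (SE). A neighbouring region lay in a coding exon, 34426 bp from the Tbx1 start. It scored 0.0 in all 4 sorted-positive libraries and 29.3, 52.3 and 7.4 in the sort-negative libraries. Both regions had an adjusted p of 0.699 (limma). Regions were named by the nearest start, so this intron and this exon may belong to another gene. Eya1, a transcriptional cofactor and phosphatase, had an intronic region at 44214 bp with 73.3, 57.4, 36.4 and 52.8 against 3.1, 0.0 and 9.7, but its sequence occurs in about 8 copies in the genome, so reads cannot be placed with certainty. The region 138587 bp downstream of the Tbx5 start ranged from 12 in Tomato+ replicate 8 to 89.4 in Tomato+ replicate 6, and scored 0.0 in all sort-negative libraries. Tbx5 encodes a T-box factor of the venous pole and forelimb.

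Genes of the contractile apparatus had few regions apart between the groups. Of 36 regions at 20 myocardial genes, 3 (8.33%) were higher in every sorted-positive library and 1 (2.78%) was lower, beside 2.26% and 2.85% of all regions with a peak in at least 2 libraries, with a median difference of 6.06. The promoter of Actc1, which encodes cardiac alpha-actin, scored 44.3 and 74.1 in GFP+ and 81.4 and 58.3 in Tomato+ libraries, against 19.1, 17.0 and 9.7 in the sort-negative libraries. It had a peak in all 4 sorted-positive and in no sort-negative library, with a difference of 48.79 ± 22.92 (SE; adjusted p = 0.699, limma). The other 2 lay in introns, with the genes of troponin subunits as the nearest. At Tnni1 the scores were 56.5, 51.3, 88.7 and 11.1 against 4.6, 0.0 and 2.8, and at Tnnt2 they were 37.1, 53.0, 64.8 and 20.3 against 0.0, 0.0 and 13.7. Tomato+ replicate 8 was the lowest of the sorted-positive libraries at both troponin regions. A further Tnnt2 region, 28718 bp from its start, was lower in every sorted-positive library. Without Tomato- replicate 7 the counts were 5 higher and 4 lower of 34 regions (14.7% and 11.8%), beside 5.81% and 7.35% of all regions within 150 kb of a TSS, so that both directions lay above that background. They were 4 and 2 without either GFP+ replicate, 3 and 1 without Tomato+ replicate 6, and 4 and 1 without Tomato+ replicate 8. With each library left out the median lay between 1.63 and 7.17.

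The other lists held at most 3 regions in either direction, beside a background of 2.26% and 2.85%. Among 104 regions at neural crest factors, 1 (at Dlx6) was higher and 2 (at Tfap2a and Sox8) were lower in every sorted-positive library, with a median difference of -0.03. Endothelial and blood-forming factors had 3 higher regions (at Erg, Flt1 and Tek) and 1 lower one (at Sox17) of 103 regions, with a median of 0.46. The regions at Erg and Sox17 lie in sequence of about 769 and 12600 copies, so neither can be placed in the genome with certainty. Tek encodes an endothelial receptor tyrosine kinase, and its single-copy intronic region scored 65.7, 85.8, 76.2 and 29.7 against 16.3, 17.0 and 6.6. Pharyngeal endoderm genes had 0 higher and 1 lower region of 82, the Sox17 region already counted, and a median of 0.00. Somite and presomitic mesoderm factors had 2 higher (Meox1 and Foxl1) and 1 lower (Mesp2) of 48, surface ectoderm genes had 0 and 1 (Tfap2c) of 27 with the median given above, and ubiquitously expressed genes had 1 (Psmb2) and 0 of 32. At Meox1, a homeobox gene of the somites, the scores were 78.7, 61.9, 85.0 and 56.0 against 12.9, 25.6 and 4.7. Markers of other cell types therefore did not all lie on the sort-negative side, and their part in the neural and heart differences was not tested.

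**Figure D3:**
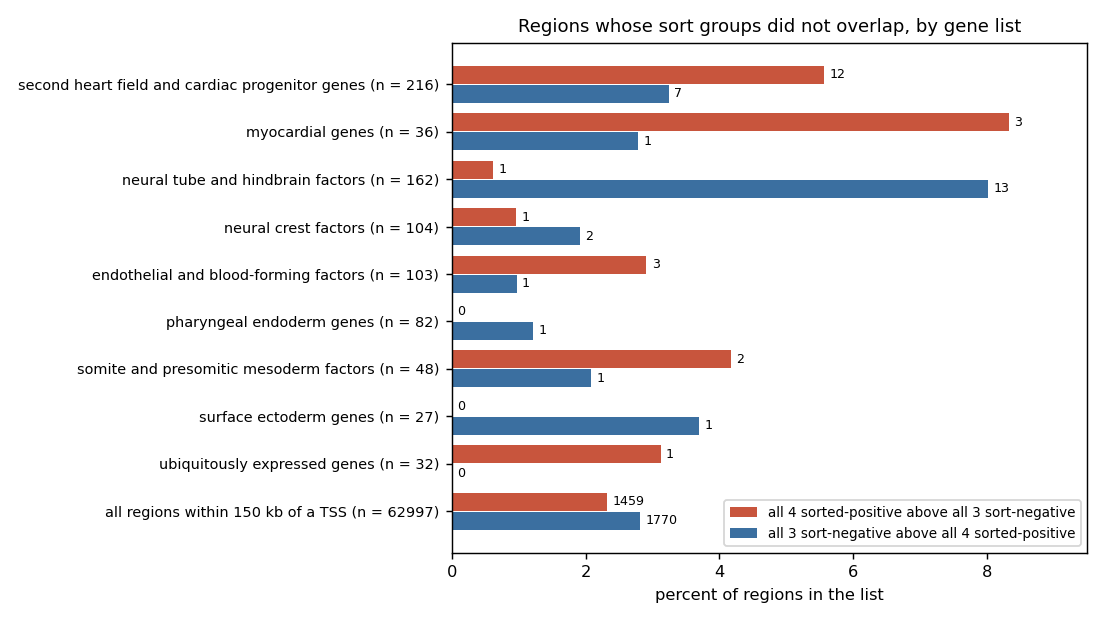
Percent of the regions of each gene list (peak in at least 2 libraries, nearest TSS within 150 kb) whose rank scores were higher in every sorted-positive (red) or in every sort-negative library (blue), with the number of regions beside each bar and all such regions in the bottom pair. The neural tube list has the longest blue bar, 13 of 162, and the myocardial list the longest red bar, which stands for 3 of 36 regions.

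Most promoters of SHF genes were open in both sorts. A promoter was the window from 1000 bp upstream to 100 bp downstream of a TSS. Of the 39 SHF and cardiac progenitor genes, 37 had a promoter region, 27 had a peak there in all 4 sorted-positive and 27 in all 3 sort-negative libraries, and 25 in all 7. For these peak counts, here and for the lists that follow, no share over all promoters is given. The myocardial list differed, with a promoter region at 10 of 20 genes, a peak in all 7 libraries at 4 and a median score of 0.0 in every library. Isl1, a defining LIM-homeobox factor of the SHF, scored 94.2, 90.3, 75.8 and 86.8 in the sorted-positive and 93.1, 92.8 and 87.3 in the sort-negative libraries. Tbx20 also overlapped between the groups, with 80.4 to 94.8 against 73.3 to 92.1. Nkx2-5, which marks committed cardiac progenitors, had 61.5 and 2.1 in GFP+ and 75.7 and 7.8 in Tomato+ libraries, against 0.7, 0.0 and 4.0, so that only 1 library of each line reached the q limit there. Nppa, the gene of atrial natriuretic peptide, scored 37.3, 55 and 57.0 in GFP+ replicates 3 and 4 and Tomato+ replicate 6, and 0.0 in Tomato+ replicate 8 and in every sort-negative library.

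Neural promoters were also broadly open, at lower ranks in the sorted-positive libraries. Of 24 neural genes, 22 had a promoter region, and 12 had a peak there in all 7 libraries. A peak was found in all 4 sorted-positive libraries at 13 and in all 3 sort-negative libraries at 19. These 2 counts are not comparable with each other, since 1 needs 4 libraries and the other 3. The median promoter score of the list was 67.4, 59.8, 56.5 and 71.3 in the sorted-positive and 74.6, 73.8 and 72.5 in the sort-negative libraries. Groups were apart at the promoters of Sox2, Dbx1, Dbx2, Msx3 and Pou3f2 in that direction and of Pax7 in the other, which is 5 and 1 of the 22. Over the promoters of all 17148 genes with a promoter region, the sort-negative scores were all higher in 2.3% and the sorted-positive scores in 2.54%. Promoters of other lists were apart in the sort-negative direction too, at Foxa3 (89.0 to 93.2 against 93.3 to 94.9) and at Mesp2 of the somite list (58.1 to 74.3 against 77.6 to 82.3). In the sorted-positive direction, promoters were apart at Mef2c and Foxc1 of the SHF list (2 of 37) and at Actc1 of the myocardial list (1 of 10). By comparison, the median over ubiquitously expressed genes was 85.8 to 88.9 against 84.6 to 90.7. Promoters of other cell types were open in both sorts to differing degrees. A peak in all 7 libraries was found at 12 of 18 neural crest promoters, among them Ets1 (95.6 to 97.4), Snai2, Twist1 and Sox9. The same held at 7 of 20 endothelial and blood-forming promoters, among them Kdr, Flt1, Runx1 and Hhex. It held at 2 of 18 pharyngeal endoderm promoters, which include Foxa3, and at 2 of 10 surface ectoderm promoters. Some defining markers had no scored peak in most libraries, which does not show that they were closed, since weaker peaks score 0 and read counts were not used. The promoter of Cdh5 (endothelium) had a score above 0 in Tomato- replicate 7 only, that of Sox10 (neural crest) in GFP+ replicate 4 only, and that of Epcam (epithelium) had no region.

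Differences in rank score were tested over all 210347 regions with limma, with mouse line as a block. The fit gave the variance trend over regions full weight (infinite prior degrees of freedom). Each SE and p-value of this fit thus came from that trend, not from the region's own spread between libraries. At an adjusted p under 0.1, 47 regions (0.0223%) were higher in the sorted-positive and 66 (0.0314%) in the sort-negative libraries, 0.0537% in all. At an unadjusted p under 0.05 there were 1868 and 2532 such regions, together 2.09%, fewer than values with no difference and a fitting error model would give. The calls depended on the set of regions and on the error model together. Over the 71981 regions with a peak in at least 2 libraries, limma called 0 in either direction (smallest adjusted p 0.828), with 1636 and 2127 at an unadjusted p under 0.05. Without a variance trend, limma called 32 and 72 of these 71981 regions and 0 in either direction over all 210347, where 2251 and 3680 had an unadjusted p under 0.05. Without Tomato+ replicate 8 the counts over all regions were 98 and 196, and without Tomato+ replicate 6 they were 37 and 86. Without GFP- replicate 1 they were 68 and 5, and without GFP- replicate 2 they were 25 and 4, so the calls in the sort-negative direction depended on both GFP- libraries.

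Against all regions, the 47 were richer in promoters and the 66 poorer, and both held more repeated sequence. Promoters made 25.5% of the 47, 4.55% of the 66 and 8.95% of all regions, and the median GC content was 59.0%, 42.5% and 53.0%. Sequence found in at least 2 copies made 31.9%, 51.5% and 17.7%. Most regions have a peak in 1 library alone, whereas 33 of the 47 and 33 of the 66 had one in all 7. Regions with a peak in all 7 libraries held 47.7% promoters and 31.4% repeated sequence. Beside those, the 47 were poorer in promoters and about level in repeats, and the 66 were richer in repeats. In 27 of the 47 (57.4%), 1 sort-negative library alone held the low values, which was Tomato- replicate 7 in 17 of them. In 45 of the 66 (68.2%), 1 sorted-positive library was low alone, which was GFP+ replicate 3 in 20, GFP+ replicate 4 in 15 and Tomato+ replicate 6 in 10. The scores of the groups did not overlap in 18 of the 47 and 16 of the 66.

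Among single-copy called regions with the same direction in both lines and no overlap of the groups, 15 were higher in the sorted-positive libraries, and those described are among the 12 with the largest differences. The promoter of Hebp2, a heme-binding protein, scored 95.6 and 96.3 in GFP+, 95.6 and 92.2 in Tomato+, 85.4 and 78.2 in GFP- and 85.1 in Tomato- libraries (difference 12.06 ± 2.14 SE, adjusted p = 0.00054, limma). The region 24806 bp upstream of the Gm32561 start, between genes, scored 97.3, 96.3, 95.5 and 89.1 against 83.1, 88.0 and 80 (11.71 ± 2.12 SE, adjusted p = 0.000795, limma). Of the called regions described here, only these 2 kept their call whichever library was left out. They were also the only ones called when limma was run on single-copy regions with a peak in at least 2 libraries, with an adjusted p of 0.0487 each. The promoter of Arvcf, a catenin that binds cadherins, scored 90.6 to 93.4 against 61.9 to 87.2, and that of Impdh1, an enzyme of guanine nucleotide synthesis, scored 90.3 to 93.9 against 78.2 to 83.6. Without GFP- replicate 1 the Arvcf difference fell from 13.81 to 6.39 and lost its call.

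The region 12296 bp upstream of Aplnr, which encodes the apelin receptor, had the largest of these differences. It scored 81.6, 79.0, 90.4 and 78.5 in the sorted-positive libraries, and 59.8, 67 and 0.0 in GFP- replicates 1 and 2 and Tomato- replicate 7 (43.93 ± 9.72 SE, adjusted p = 0.0264, limma). The value of 0.0 in Tomato- replicate 7 is a peak with a -log10 p of 3.24 that ranked below the last scored rank. Within lines the difference was 16.91 in Hoxb1GFP and 84.45 in Mef2c-Cre;RosatdT embryos. Without Tomato- replicate 7 it fell to 17.52 and the call was lost. In an intronic region at Emb, the gene of the adhesion protein embigin, scores were 78.0 to 88.3 against 39.2 to 63.1. Those at Gm14616, Cpq, Gm15910, Ccdc42 and Gm10432 had differences between 14.39 and 38.93. That of Gm14616 fell from 38.93 to 20.33 without GFP- replicate 1, that of Cpq fell from 33.33 to 13.18 without GFP- replicate 2, and both calls were then lost. All of these regions were open in the sort-negative libraries too, with a peak in at least 6 of 7 libraries.

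In the opposite direction 6 regions met the same criteria. The region 229047 bp upstream of Nr2f1, an orphan nuclear receptor gene, scored 84.2 and 75.6 in GFP+, 0.0 and 82.4 in Tomato+, 93.4 and 93.2 in GFP- and 91.9 in Tomato- libraries (-28.32 ± 5.78 SE, adjusted p = 0.00923, limma). The low value came from Tomato+ replicate 6, as it did at the region 349283 bp from Tmem161b (0.0 against 67.7 to 84.7 in the other sorted-positive libraries). Without Tomato- replicate 7 the Nr2f1 difference was -13.86 and not called. In an intronic region 252882 bp from the start of Gucy1a2, a subunit of soluble guanylate cyclase, the difference was -31.28 in the Hoxb1GFP line. It was -2.03 in the Mef2c line. The regions at Gm6600 and the promoter of Susd6 had differences of -17.94 and -8.03. Soft-masked bases, which mark annotated repeats, made 91.6% of the Gucy1a2 and 98.5% of the Gm6600 region, although both counted as single-copy. Without GFP+ replicate 3 the differences at Gucy1a2 and Susd6 moved from -19.58 to -12.11 and from -8.03 to -5.26, and neither was called. No gene had more than 1 called region in the sorted-positive direction, whereas Cdkn2a and Gm6600 each had 2 in the other.

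**Figure D4:**
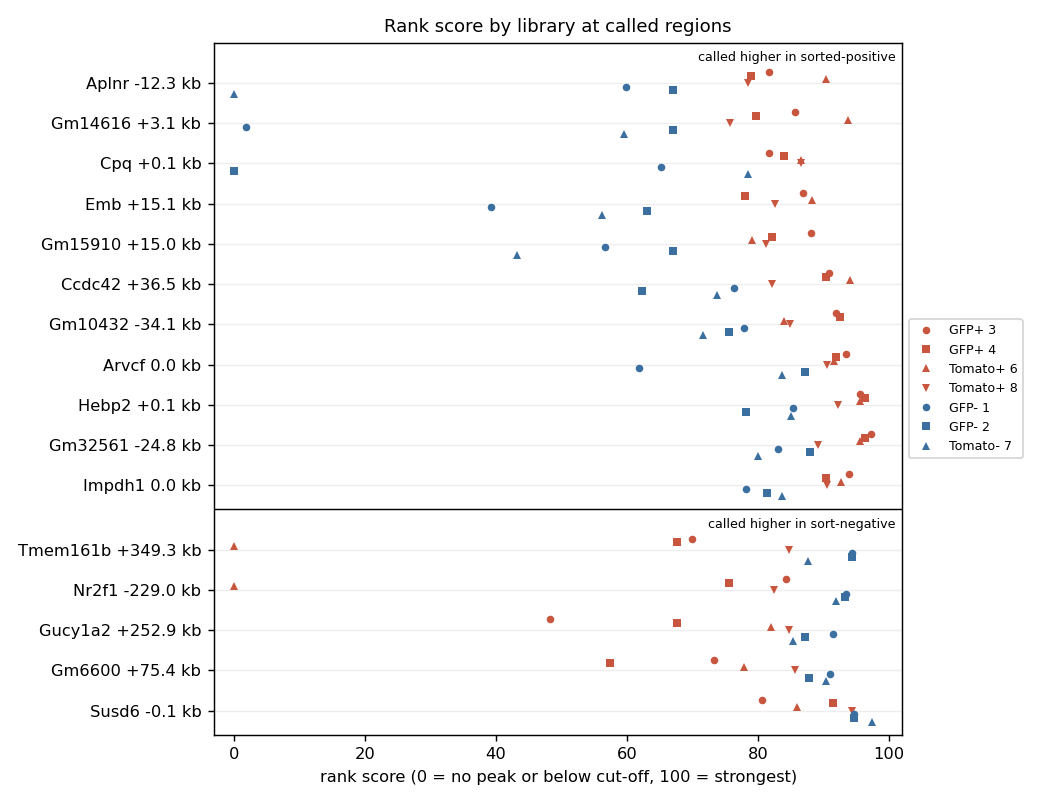
Rank score (x axis, 0 to 100) in each library at the regions of the named set called higher in the sorted-positive group (above the line) and in the sort-negative group (below it), with the nearest gene and the distance to its TSS in kb. Red marks are the 4 sorted-positive and blue marks the 3 sort-negative libraries. At several regions 1 library is far below the others of its group, such as Tomato- 7 at Aplnr and Tomato+ 6 at Nr2f1, both at 0.0.

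Presence of a peak gave a second view that does not depend on ranks. It rests on a q limit, and q-values grow with sequencing depth, which the ranks were used to avoid. A peak in all 4 sorted-positive and in no sort-negative library was found in 188 regions (0.0894%), and a peak in all 3 sort-negative and in no sorted-positive library in 344 (0.164%). The 2 counts are not comparable with each other, since 1 needs 4 libraries and the other 3. Weaker peaks often remained in the other group: with no deposited peak of any p there, 30 and 47 regions were left. Without Tomato+ replicate 8 the counts were 709 and 755, and without Tomato+ replicate 6 they were 408 and 525. Repeated sequence made 20.7% of the 188 and 30.8% of the 344. The Y chromosome held 0 and 7 of them, while between 0.805% and 1.69% of the peaks of each library lay on it.

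The strongest regions of the sorted-positive pattern, by the -log10 p in their weakest library, included those at 3930402G23Rik, Impa2, Triqk and Vip. The region nearest to Triqk, 358746 bp away, scored 65.9 to 88.6 against 0.0 to 1.1. The start of Vip, a neuropeptide gene, scored 65.9 to 79.9 against 0.0 to 25.5. The strongest of the sort-negative pattern were D030045P18Rik, which scored 80.1, 85.2 and 79.6 against 0.0 to 8.2, and regions at Sox17, Gm21724, A530040E14Rik and Gm5925 that lie in sequence of 3 to 12600 copies.

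Because repeats led that side, the next strongest in single-copy sequence were added after the values were seen. On the sorted-positive side these were at Fezf2, Flna, Septin11 and Gm36406. The intronic region at Septin11 printed above scored 63.1, 69.2, 66.1 and 71.8 against 0.0, 0.0 and 7.3. On the sort-negative side they included those at Crb1, Vamp9, Nkx6-2, G530011O06Rik, Cmtm4 and Rfx4. Crb1 encodes an apical polarity protein of the neuroepithelium and retina, Nkx6-2 a homeodomain factor of the ventral neural tube, and Rfx4 a winged-helix factor of the neural tube. Roles are given here for these genes only. None is given for the others named, such as Vamp9 and Cmtm4, or for Fezf2 and others on the sorted-positive side. These roles therefore do not describe either pattern. The region at Crb1 scored 71.1, 88.0 and 68.0 in the sort-negative libraries and 19.4, 0.0, 0.0 and 14.9 in the sorted-positive ones. The region 51862 bp from the start of Nkx6-2 had 68.3, 71.0 and 71.4 against 0.0, 0.0, 0.0 and 19.7. An intronic region at Rfx4 had 71.7, 75.3 and 59.6 against 0.0 in all 4. Dusp6, a phosphatase that damps FGF signalling, was the only gene with 2 regions of the sorted-positive pattern. Bmp7, Rnf220, 1700006H21Rik and Zswim2 had 2 each of the sort-negative pattern. Of the gene lists, Eya1, Actc1, Tek, Psmb2 and Erg held a region of the first pattern, and Pax3, Sox2, Neurog2, Tfap2a, Olig2 and the repeat near Sox17 one of the second.

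Sequence near the summits differed between the directions in matches to SOX and TEAD cores. Motifs were counted on both strands in 200 bp windows of regions outside promoters in single-copy sequence, as shares without a test. Among 35922 such regions with a peak in at least 2 libraries, 15.1% held ACAAAG. The share was 22.6% among the 1044 that were higher in every sort-negative library and 12.4% among the 886 that were higher in every sorted-positive library. The variant ACAATG gave 13.9% and 6.55% beside 9.04%, and matches of these 2 motifs cannot overlap. GGAATG, the TEAD core bound by effectors of the Hippo pathway, went the other way, with 11.2% and 18.5% beside 12.6%. The SP/KLF box GGGCGGG was found in 7.57% and 11.7% beside 7.60%. Shares of GATA were 8.05% and 7% beside 6.70%, and those of HOX-PBX were 9.20% and 9.71% beside 7.20%. The median GC content of the windows was 54.0% and 55.5% beside 55%. Without Tomato+ replicate 6 the ACAAAG shares were 20.7% and 11.8% beside 15.3%, and without Tomato+ replicate 8 they were 22.9% and 12.3% beside 15.2%. They were 18.4% and 12.4% beside 14.8% without GFP- replicate 1, and 18.5% and 12.2% beside 14.6% without GFP- replicate 2. The GGAATG shares were 10.6% and 15% beside 12.3% without replicate 6, and 10.9% and 20.2% beside 12.8% without replicate 8. Without Tomato- replicate 7 the GGAATG share of the sort-negative direction was 14.3% and that of the sorted-positive direction 15.8%, beside 12.9% of all such regions, so the TEAD contrast was much smaller without that library.

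The presence patterns parted in the same direction for ACAAAG, but not for every motif. ACAAAG was found in 24.3% of 218 regions with a peak in every sort-negative and no sorted-positive library and in 13.4% of 127 of the opposite pattern, beside 15.9% of 10265 regions with a peak in 3 or 4 libraries. GGAATG was found in 14.2% and 18.1%, beside 12.9%, so that here both directions lay above the reference. GATA matches were in 8.72% and 4.72% beside 6.83%, and HOX-PBX matches in 10.1% and 7.09% beside 7.83%. In the Hoxb1GFP line, 23.7% of 2070 regions open in both GFP- and neither GFP+ library held ACAAAG, against 13% of 2296 of the opposite pattern. In the Mef2c line another rule was needed, since it has 1 negative library. There 14.9% of 5100 regions with a peak in Tomato- replicate 7, in neither Tomato+ library and in at least 2 libraries of the series held ACAAAG, and 13.2% of 1940 with a peak in both Tomato+ libraries and not in Tomato- replicate 7. The 2 lines are therefore not compared like for like. Over both lines, the ACAAAG shares of the sort-negative and the sorted-positive presence pattern were 17.4% and 15.1% without GFP- replicate 1. They were 15.8% and 11.3% without GFP- replicate 2, and 25.7% and 11.2% without Tomato- replicate 7. The contrast was thus smaller without GFP- replicate 1 or 2.

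The motif shares on the sorted-positive side changed when Tomato+ replicate 8 was left out. Without it, 557 distal single-copy regions had a peak in the other 3 sorted-positive libraries and in no sort-negative library. GATA matches were in 14.4% of them, TEAD in 22.3% and MEIS in 27.6%. Over all distal single-copy regions with a peak in at least 2 of the libraries left, these shares were 6.75%, 12.8% and 16.3%. With replicate 8, the shares were 4.72%, 18.1% and 20.5% of 127, beside 6.83%, 12.9% and 17.2% of regions with a peak in 3 or 4 libraries. Without Tomato+ replicate 6 they were 3.93%, 13.9% and 18.6% of 280, and the ACAAAG shares were 22.3% of 318 in the sort-negative and 11.8% in the sorted-positive pattern. Without Tomato+ replicate 8 the ACAAAG shares were 26.8% of 482 and 12.4%. GATA factors act in heart progenitors and MEIS proteins are cofactors of HOX proteins. A match to these letters is not evidence that a factor was bound.

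**Figure D5:**
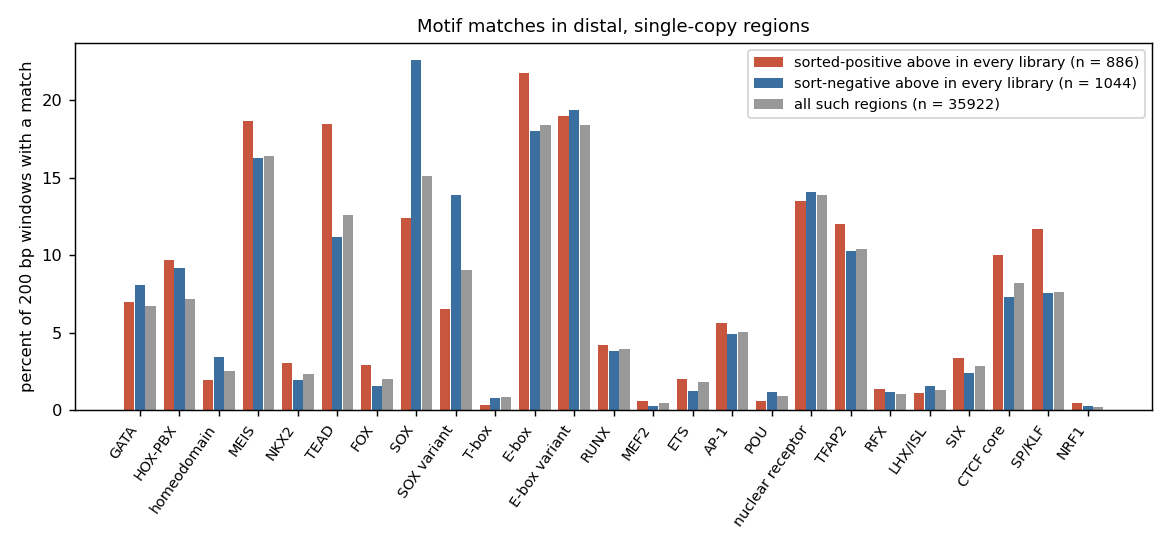
Percent of 200 bp windows with at least 1 match (y axis) for each motif in distal single-copy regions with a peak in at least 2 libraries, split into regions higher in every sorted-positive library (red, n = 886), higher in every sort-negative library (blue, n = 1044) and all such regions (grey, n = 35922). The blue bars stand above the grey for both SOX motifs (22.6% beside 15.1% for SOX) and the red bar above the grey for TEAD (18.5% beside 12.6%).

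The difference between sorts was also compared between the 2 lines. An interaction term of line and sort called 17788 of 210347 regions (8.46%) at an adjusted p under 0.1 (limma), but 92.7% of these, 16492 regions, had a peak in Tomato- replicate 7 alone, the only library of its group. Over regions with a peak in at least 2 libraries limma called 0, with 1674 and 1666 at an unadjusted p under 0.05 in the 2 directions. Among the regions named here, Aplnr had an interaction (adjusted p = 0.0281, limma), which rests on the score of 0.0 in Tomato- replicate 7. The median difference at SHF and cardiac progenitor genes was 1.94 within the Hoxb1GFP line and 3.63 within the Mef2c line, at myocardial genes it was 1.72 and 5.67, and at neural tube and hindbrain factors it was -3.99 and -3.49.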

How the data were processed

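ATAC-seq peak lists of 7 libraries were used. Reads were mapped by the authors to GRCm38 with SNAP and cleared of duplicates, improper pairs and blacklisted regions, and MACS (2.1.1 in the submitters' processing notes) was run on each library, without pooling. Per the file header kept with Tomato+ replicate 6, no control library and a p limit of 0.01 were used, and each tag was extended to 73 bp. The authors deposited the pileup (coverage signal), the fold enrichment (a ratio to local background), and -log10 p-values and -log10 q-values, which are within-library values that grow with depth. No read counts were used, so the DiffBind comparison of the study's methods was not repeated. The members of the comparison, the gene lists and the motifs were chosen with earlier results of these data known.

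Ranks were tested with limma 3.58.1 (R 4.3.3, empirical Bayes with a variance trend, mouse line as block) and Benjamini-Hochberg adjustment over all regions. Nothing in the labels states that replicates came from separate pools, so the spread between these libraries may be technical. In the sort comparison over all 210347 regions, limma gave the variance trend full weight (infinite prior degrees of freedom). Each SE and p-value of that fit therefore rests on the spread over regions of like mean score, not on the spread at the region itself. Repeated sequence had a median of at least 2 genome copies of the 31-mers within 50 bp of the summit. TSSs were those of 45756 curated RefSeq transcripts. Intron and exon labels describe the site of the summit, and the gene they belong to was not recorded. Named regions were single-copy called regions with 1 direction in both lines and groups apart (up to 12 a direction), the 5 strongest of each presence pattern, genes with most regions, and up to 4 genes per list with a called region, of which there were 0. Alternatives were other rank measures, peak limits, filters and blocks, and leaving out each library. Scripts (Python 3.11.15, numpy 2.4.6, pandas 2.3.3) were tested on simulated data. No counting interval can be given without read counts. Some regions that the naming rule chose are not reported here.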

Additional observations from a re-analysis of the deposited data

Results flagged for a closer look

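Among 36 groups of 4 sorted-positive libraries checked for a sample far from the others by Dixon's criterion, 4 had one. The groups included scores of regions chosen for their separation, with a floor at 0. The count therefore cannot be set against a chance rate. Tomato+ replicate 8 had 64306 peaks at the q limit, the fewest of the sorted-positive libraries. It also had the lowest score at the Hebp2 promoter, 92.2, still above all sort-negative libraries. Tomato+ replicate 6 scored 0.0 upstream of Nr2f1, and GFP+ replicate 4 scored 8.2 at D030045P18Rik, where the other sorted-positive libraries scored 0.0.

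The difference between sorts differed between the mouse lines by a test of the interaction in 17788 regions, 92.7% of which had a peak in Tomato- replicate 7 alone, and at Aplnr (adjusted p = 0.0281, limma), where that library scored 0.0. Each such result rests on the 1 Tomato- library.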

How the results depend on the processing

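No paired analysis was made, because nothing in the labels links a positive to a negative library. The counts of regions called by limma in the sorted-positive and the sort-negative direction (47 and 66) were 0 and 0 at a -log10 q of at least 4, with the 30000 strongest peaks per library, with fold enrichment ranked, without a variance trend, in regions with a peak in at least 2 libraries and within the Hoxb1GFP line. They were 210 and 233 with average-tie percentiles in place of the rank score, which replaces the score itself and not only its treatment of ties. With no line block they were 24 and 30, and in single-copy regions 12 and 11. They were 824 and 18347 within the Mef2c line, where the lone Tomato- library is assumed to vary like the others. The sort-negative count was 36 with normal scores, and the sorted-positive count 22 at an adjusted p under 0.05. Leaving out 1 library gave 15 to 98 and 4 to 196. Alternatives added after seeing the data gave 32 and 72 in regions with a peak in at least 2 libraries without a variance trend, 0 and 0 in regions with a peak in at least 4 libraries, 9 and 1 in the latter without a trend, 2 and 0 in single-copy regions with a peak in at least 2, and 30 and 47 regions of the presence patterns with no peak of any p in the other group. The presence patterns (188 and 344) held 75 and 187 regions at the stricter q limit, 78 and 121 with the 30000 strongest peaks, 524 and 684 with any deposited peak, and 308 to 709 and 525 to 1603 with 1 library left out. The interaction count (17788) was 0 at the stricter q limit, with the 30000 strongest peaks, with average-tie percentiles and with normal scores. It was also 0 in every filter on regions with a peak in 2 or more or 4 or more libraries. With 1 library left out it was 36248 to 44305. At the 18 named called regions, 146 of 413 values under alternatives stayed past the threshold and 267 did not, with no change of direction. At 10 named regions of the presence patterns, 202 of 215 values kept their side of the threshold and 13 passed it. The cause of these changes was not tested. The part of depth was not tested, and without read counts no counting error can be given.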
